A study of Mus musculus with 33 samples.

Results

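Immune checkpoint genes were measured one by one in the cells next to disseminated tumour cells and in the rest of the same tissues. The 9 genes were Cd274, Pdcd1lg2, Vsir, Lgals9, Cd80, Cd86, Sirpa, Pvr and Cd200r1, out of 32285 genes in the files. They were given by name, but earlier results of these data were known when the list was chosen. Of the 9 genes, 7 encode ligands that restrain or tune lymphocytes. Sirpa and Cd200r1 encode receptors on myeloid cells, so the list is not one of ligands alone. Each gene was followed across cell types, 4 tissues and both biotin sorts, sample by sample.

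The samples came from SAMENT, a niche labelling method in which injected tumour cells carry an enzyme that tags their neighbours with biotin. After an intracardiac injection and overnight substrate labelling, bone, brain, liver and lung were each digested with collagenase and its cells sorted by biotin into a positive and a negative fraction, with 4 replicates in each of the 8 groups. A second experiment was 1 pooled bone library after an injection that the labels call only IIA, in which 12 hashtags marked a positive and a negative sample for each of 6 injections. All groups had received tumour cells, so the negative sort is untagged tissue of injected animals and not healthy tissue. The tumour line and the strain, age and sex of the mice have no entry in the labels.

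Checkpoint ligands bind receptors that dampen immune cells. PD-L1 (Cd274) and PD-L2 (Pdcd1lg2) bind PD-1 on T cells, and PD-L1 is induced in many cells by interferon gamma. CD80 and CD86 on antigen-presenting cells activate T cells through CD28 and restrain them through CTLA-4. VISTA (Vsir) is carried mainly by myeloid cells, galectin-9 (Lgals9) is a secreted lectin that can bind TIM-3, and the poliovirus receptor CD155 (Pvr) binds TIGIT, CD96 and CD226 on T and NK cells. SIRP-alpha (Sirpa) receives the CD47 signal that holds back phagocytosis, and CD200R (Cd200r1) receives the CD200 signal that quiets macrophages.

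The genes lie on GRCm38 at chr19:29367455-29388095 (Cd274, plus strand), chr19:29410919-29471161 (Pdcd1lg2, plus), chr10:60346851-60372684 (Vsir, plus), chr11:78962974-78984946 (Lgals9, minus), chr16:38455561-38496335 (Cd80, plus), chr16:36603869-36666081 (Cd86, minus), chr2:129592835-129632228 (Sirpa, plus), chr7:19903578-19921160 (Pvr, minus) and chr16:44765736-44794978 (Cd200r1, plus). Cd274 ends 22.824 kb before Pdcd1lg2 begins, on the same strand. The RefSeq promoter table (GRCm38.p6, 250 bases before to 50 after each gene's start) held 5 of the 9 genes. The promoters of Cd274 and Pdcd1lg2 are shown because these genes are neighbours, and those of Cd80 and Lgals9 because they held a searched motif. Capitals mark motif matches, and each is written 5′ to 3′ on the gene's strand. The RefSeq start of Cd80 differs from the annotated start given above, so that its window lies inside the gene.
Cd274, chr19:29367188-29367487: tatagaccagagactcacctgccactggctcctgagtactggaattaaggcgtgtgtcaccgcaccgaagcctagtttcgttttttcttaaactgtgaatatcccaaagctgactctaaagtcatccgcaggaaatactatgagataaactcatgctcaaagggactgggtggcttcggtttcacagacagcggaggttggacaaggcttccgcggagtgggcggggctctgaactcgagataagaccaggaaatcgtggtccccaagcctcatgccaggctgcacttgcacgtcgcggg
Pdcd1lg2, chr19:29410669-29410968: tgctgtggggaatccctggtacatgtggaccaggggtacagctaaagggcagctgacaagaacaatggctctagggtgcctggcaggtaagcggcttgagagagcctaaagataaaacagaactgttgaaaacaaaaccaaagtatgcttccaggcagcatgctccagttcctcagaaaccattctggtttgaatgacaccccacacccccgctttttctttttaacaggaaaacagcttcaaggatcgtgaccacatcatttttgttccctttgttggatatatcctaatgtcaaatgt
Cd80, chr16:38458683-38458982: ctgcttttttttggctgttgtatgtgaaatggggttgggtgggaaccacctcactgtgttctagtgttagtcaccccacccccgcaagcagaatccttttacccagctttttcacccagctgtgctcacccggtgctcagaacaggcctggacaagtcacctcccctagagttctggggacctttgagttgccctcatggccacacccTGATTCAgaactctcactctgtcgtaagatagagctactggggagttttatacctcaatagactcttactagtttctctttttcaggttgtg
Lgals9, chr11:78984875-78985174: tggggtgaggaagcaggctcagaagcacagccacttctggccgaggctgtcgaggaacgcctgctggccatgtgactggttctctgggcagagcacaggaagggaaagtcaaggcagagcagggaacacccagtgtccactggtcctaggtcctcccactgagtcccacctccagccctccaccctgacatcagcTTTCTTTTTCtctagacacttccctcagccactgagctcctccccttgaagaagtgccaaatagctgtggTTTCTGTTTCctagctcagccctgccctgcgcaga

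Both strands were searched for TTCNNNGAA, the gamma-activated site, for a pair of GAAA set 2 bases apart, the core of the interferon response element, and for TGANTCA, the AP-1 site. In 32851 promoters of the same length these letters occurred in 8.30%, 3.44% and 7.81% respectively. The Lgals9 promoter had 2 matches to the GAAA pair, both on the opposite strand, and the Cd80 promoter had 1 match to TGANTCA. The windows of Cd274, Pdcd1lg2 and Vsir held none of the 3 letter patterns, which says nothing about factors bound there or elsewhere.

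After filtering, 55366 intracardiac and 22362 IIA cells remained. Total UMIs (unique molecule counts) per intracardiac sample ranged from 497940 to 44874529 and the median per cell from 2606 to 11313.5. Cells were clustered and named from marker lists, so every class name means resemblance only (alveolar macrophage stands for alveolar macrophage-like), and a cluster that no list fitted is called by its leading genes. Among 384 pairs of intracardiac samples with different replicate numbers, 188 shared at least 1 cell barcode, at most 7 and 341 in all, while 0 of 112 pairs with the same number did. Levels are CPM (a gene's UMIs scaled to the same total) from the summed counts of a class in a sample with at least 20 such cells. They are compared only within a gene and within an experiment, since the intracardiac libraries read 3′ ends and the IIA library 5′ ends. Reads of Cd200r1 and Sirpa may be shared with near-identical genes of their families, so their counts are uncertain.

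Cd274 was highest on average in alveolar macrophages, at 142 ± 33.3 CPM (SD, n = 4 lung positive samples), where the 4 samples read 154, 105, 182 and 128. Nonclassical monocytes, the patrolling blood monocytes, followed at 110 ± 34.8 (n = 15), a gap smaller than their SD, and were found in all 4 tissues. Alveolar macrophages were 6.71% of intracardiac cells and held 38.4% of the 10791 Cd274 UMIs, and neutrophils were 37.1% of cells and held 18.3%. After thinning each cell to 1000 UMIs, 11.8% of alveolar macrophages (57.4% unthinned, median 8225 UMIs) had a Cd274 UMI, against 2.36% of T cells (7.11% unthinned, median 3171), which can carry the gene at low level.

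Pdcd1lg2 had a different order of classes. Its mean was highest in NK cells, 26.1 ± 19.5 CPM (n = 11), then B cells, 17 ± 11.6 (n = 26), basophil-related cells led by Prss34, Mcpt8 and Cpa3, 16 ± 10.9 (n = 5), and alveolar macrophages, 14.8 ± 3.36 (n = 4). No gap between these neighbours exceeded their SD, so their order is not resolved. Alveolar macrophages still held 27.8% of the 1740 Pdcd1lg2 UMIs, and 260 of 3713 of them had UMIs of both Cd274 and Pdcd1lg2, against 2132 with Cd274 and 424 with Pdcd1lg2.

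A small group of 70 mature dendritic cells, the migratory state named from Ccr7, Fscn1 and Ccl22, was examined for each gene. Of the 70, 67.1% had a Cd274 UMI (95% exact binomial interval 54.9 to 77.9%), 32.9% Pdcd1lg2 (22.1 to 45.1%), 48.6% Cd80 (36.4 to 60.8%), 65.7% Cd86 (53.4 to 76.7%) and 28.6% Pvr (18.4 to 40.6%). Sirpa was found in 25.7% (16 to 37.6%), Vsir in 15.7% (8.11 to 26.4%), and Lgals9 and Cd200r1 were each found in 4.29% (0.893 to 12%). These cells were deep (median 7732 UMIs, T cells 3171). Thinned to 1000 UMIs, the shares of Cd274, Cd80 and Cd86 were 21.4%, 11.5% and 17.2%, against 2.36%, 0.509% and 0.683% of T cells, and those of Pdcd1lg2, Pvr and Sirpa 5.78%, 5.04% and 4.21% against 1.28%, 1.56% and 0.853%. For Vsir (2.02% against 9.10%), Lgals9 (0.525%) and Cd200r1 (0.692% against 1.41%) the thinned share lay below that of T cells and is not read as expression. Both Cd274 and Pdcd1lg2 were seen in 19 of the 70, and both Cd80 and Cd86 in 28. No sample held 20 of these cells, so they have no level per sample, and the intervals cover counting error only.

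Cd86 had its highest means in brain phagocytes. Border-associated macrophages, which line vessels and meninges, had 413, 323 and 294 CPM (343 ± 62.0, n = 3) and microglia 268, 252 and 253 (258 ± 9.07, n = 3). Kupffer or marrow macrophages, the iron-recycling macrophages of liver and marrow, followed at 118 ± 41.8 (n = 6), and each of these gaps exceeded the larger SD. Of border-associated macrophages 26.7% had a Cd86 UMI when thinned (57.1% unthinned, median 3552 UMIs) and of T cells 0.683% (2.33% unthinned). Border-associated macrophages and microglia held 8.38% and 5.10% of the 12469 Cd86 UMIs, and classical monocytes and neutrophils, which are more numerous, 17.9% and 13.6%. Among the highest Cd80 means, Kupffer or marrow macrophages (45.6 ± 5.48 CPM, n = 6), neutrophils (38.7 ± 25.1, n = 32) and classical monocytes (33.7 ± 23.9, n = 24) did not differ beyond their SDs. Neutrophils held 41.1% of the 8608 Cd80 UMIs, and T cells, 8.84% of cells, held 1.20%.

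Vsir was led by microglia at 872, 638 and 774 CPM (761 ± 118, n = 3), above border-associated macrophages (320 ± 35.7, n = 3) by more than the larger SD. Classical monocytes, the inflammatory blood monocytes, had 283 ± 44.9 (n = 24), below border-associated macrophages by less than the larger SD. A Vsir UMI was found in 53.2% of thinned microglia (92.7% unthinned, median 5192.5 UMIs) and in 9.10% of thinned T cells. Neutrophils held 44.7% of the 78327 Vsir UMIs. The highest Lgals9 means were 156 ± 56.7 CPM in the Prss34-led cells (n = 5), 155 ± 40.1 in microglia (n = 3) and 140 ± 67.6 in endothelial cells (n = 9), with no gap beyond the SD, and classical monocytes had 81.7 ± 33.8 (n = 24) and NK cells 70.7 ± 14.1 (n = 11). Pvr was highest on average in endothelial cells, which line vessels, at 39.7 ± 22.8 (n = 9), and in conventional dendritic type 2 cells at 30.9 ± 18.3 (n = 17), with no gap beyond the SD.

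Both myeloid receptors had their highest means in tissue macrophages. Sirpa read 662, 631, 655 and 704 CPM in alveolar macrophages (663 ± 30.5, n = 4), a narrow range. Kupffer or marrow macrophages had 628 ± 391 (n = 6), in which both bone samples (891 and 1312) lay far above the 4 liver samples (345 to 416). Microglia had 495 ± 99.6 (n = 3). Thinned, 47.9% of alveolar macrophages and 0.853% of T cells had a Sirpa UMI. Cd200r1 was highest in border-associated macrophages (80.8 ± 26.2, n = 3) and alveolar macrophages (70.3 ± 15, n = 4), again without a gap beyond the SD. Microglia had only 21.3 ± 21.4 (n = 3), less on average than plasmacytoid dendritic cells (36.6 ± 15, n = 7).

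**Figure D1:**
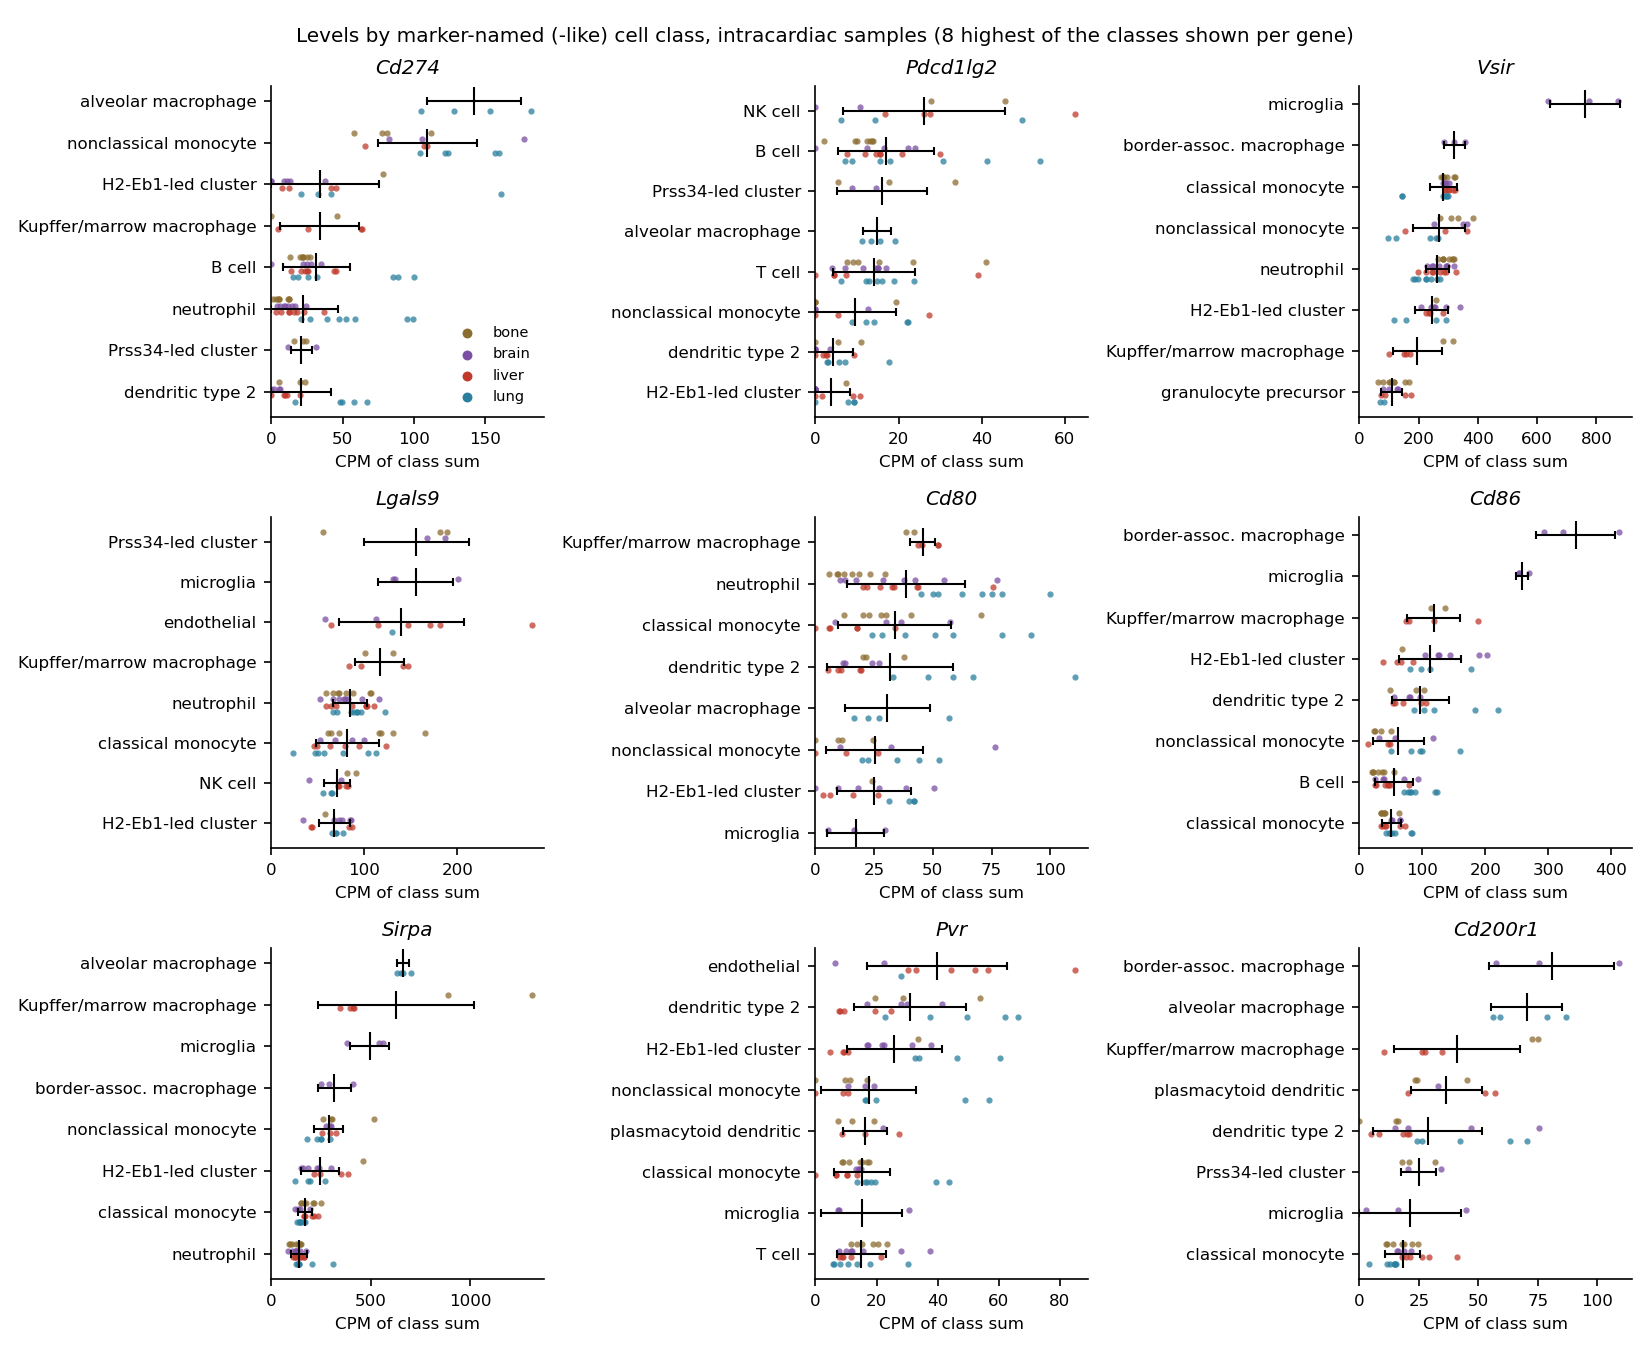
Level of each gene (CPM of the summed counts of a class, horizontal axis) in its 8 highest intracardiac cell classes, leaving out 1 cluster that is not reported here. Each point is 1 sample with at least 20 cells of the class, coloured by tissue, and bars give mean and SD over samples: microglia stand apart for Vsir (638 to 872), both brain macrophage classes for Cd86, and the bone points for Sirpa in Kupffer or marrow macrophages (891 and 1312).

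In the IIA bone experiment the orders were partly different. Cd274 averaged 279 ± 126 CPM in nonclassical monocytes (n = 4), 278 ± 226 in an unnamed neutrophil-related cluster led by Acod1, Cstdc4 and Hcar2 (n = 7) and 202 ± 98.7 in macrophages (n = 6). The macrophages were 3.64% of IIA cells and held 34.2% of the 3099 Cd274 UMIs. Cd80 was highest in the Acod1-led cells, 200 ± 91.2 (n = 7), Vsir in neutrophils, 367 ± 48.5 (n = 12), and Cd86 in macrophages, 286 ± 95.9 (n = 6). The Cd86 mean was close to that of conventional dendritic type 2 cells, 262 ± 160 (n = 4). Lgals9 had its highest mean in B cell precursors, 430 ± 70.4 (n = 6), with a gap to basophils (n = 4) below the larger SD. Cd200r1 was led by basophils, 144 ± 67.5 (n = 4), above macrophages at 44.2 ± 19.5 (n = 6) by more than the larger SD.

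The first comparison was between the tagged niche and the untagged tissue over all kept cells, where a change can come from fewer cells of a type or from less RNA per cell, which sums of all cells cannot tell apart. In lung, 3 of the 9 genes were higher in the positive sort and none was lower. Cd274 read 120, 94.8, 98.3 and 84.0 CPM in the positive samples and 44.3, 25.0, 28.1 and 39.5 in the negative ones. Sirpa read 403, 541, 342 and 247 against 83.5, 142, 98.2 and 96.0. Cd200r1 read 38.5, 60.7, 39.7 and 29.5 against 6.74, 11.7, 12.9 and 14.6. The sorts did not overlap for any of the 3, though overlap, here and below, was not counted over all genes. The log2 fold changes were 1.28 ± 0.21 (SE, adjusted p = 0.00581) for Cd274, 1.56 ± 0.29 (adjusted p = 0.00822) for Sirpa and 1.59 ± 0.29 (adjusted p = 0.00796) for Cd200r1, in edgeR's quasi-likelihood test with Benjamini-Hochberg adjustment over all genes. Of 12331 genes tested in lung 18.3% were called, and the median log2 fold change was -0.20 over the 9 genes and -0.04 over all genes.

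The lung positive sort had another makeup, whose part in these values was not tested. Alveolar macrophages were 42.2% ± 26.5 of its cells (n = 4) and 0.226% ± 0.277 of negative cells, and T cells 3.13% ± 2.86 against 20.6% ± 10.4. Of 14 tested partner genes of these ligands 8 were called, 7 lower in the positive sort, among them Cd96 (-3.40 ± 0.71, adjusted p = 0.0135), Icos (-3.31 ± 0.69, adjusted p = 0.0137), Btla (-1.99 ± 0.42, adjusted p = 0.0141), Cd226 (-2.64 ± 0.62, adjusted p = 0.0205) and Pdcd1, which encodes PD-1 (-3.11 ± 0.77, adjusted p = 0.0245). Rgmb, a PD-L2 partner, was the 1 called higher (1.91 ± 0.34, adjusted p = 0.00781). Their median log2 fold change was -2.23. Of 16 genes of other inhibitory myeloid receptors, a list that also holds Ptpn6 for the phosphatase SHP-1 they recruit, 4 were called: Cd200r4 (3.65 ± 0.32, adjusted p = 0.000823), Siglecf, the Siglec of alveolar macrophages and eosinophils (3.74 ± 0.61, adjusted p = 0.00531) and Lair1, a collagen receptor (1.07 ± 0.23, adjusted p = 0.0143), were higher, and Cd300a was lower (-0.89 ± 0.21, adjusted p = 0.0197). Among 15 interferon gamma response genes only Socs1 was called, and it was lower (-1.52 ± 0.40, adjusted p = 0.0319). Among 11 other checkpoint ligands only Nectin2, a TIGIT ligand, was called (1.45 ± 0.40, adjusted p = 0.0349).

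In brain Cd86 was the gene nearest a call. It read 72.0, 251, 105 and 124 CPM in positive and 23, 40.1, 44.8 and 21.0 in negative samples, so that the sorts did not overlap. The log2 fold change of 1.79 ± 0.40 had an adjusted p of 0.0501 in edgeR and was not called, whereas the adjusted p was 0.00132 in DESeq2 and 0.0114 with the replicate number as a block. Border-associated macrophages were 30.7% ± 31.6 of positive and 0.724% ± 0.503 of negative brain cells and microglia 18.8% ± 20.1 against 0.453% ± 0.263 (n = 4 each), a makeup whose part was not tested over all cells. In brain 3.06% of 11064 genes and 0 of the 9 members were called, 2 with an unadjusted p under 0.05 (Cd86 and Sirpa, 0.69 ± 0.28, adjusted p = 0.212). Rgmb was higher there too (2.71 ± 0.44, adjusted p = 0.0202), the 1 called of 14 partner genes. In bone 0% of 12533 genes and in liver 0% of 11854 were called in edgeR, against 53 and 431 genes in DESeq2. Unadjusted p was under 0.05 for 983 genes in bone, Pdcd1lg2 the only member among them, and for 1571 genes and no member in liver. DESeq2 called no member in either. Liver positive replicate 2 was high for Cd86 (104 CPM, others 20.7 to 32).

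In IIA bone 2 of the 9 genes were called, both lower in the positive sort. Vsir read 140, 154, 130, 129, 90.7 and 136 CPM in positive and 236, 257, 268, 235, 273 and 260 in negative samples, without overlap, a log2 fold change of -1.22 ± 0.12 (edgeR adjusted p = 1.09e-05). Lgals9 overlapped, with 85.2 ± 12.4 CPM against 93.2 ± 6.76 (n = 6 each), and had a log2 fold change of -0.37 ± 0.09 (adjusted p = 0.00497) after scaling by the trimmed mean of M values (TMM), which CPM lacks. Here 50.2% of 12625 genes were called, so 2 of 9 is below the background share. Cd274 had 1.23 ± 0.58 (adjusted p = 0.0957), which was called when the replicate number was a block (0.90, adjusted p = 0.0346) or when negative replicate 2 was left out (1.70, adjusted p = 0.034). Of 14 partner genes 9 were called, all lower, such as Selplg, a VISTA and selectin ligand (-1.28 ± 0.11, adjusted p = 5.51e-06), and Btla (-2.87 ± 0.32, adjusted p = 2.41e-05). Of 17 genes of the inhibitory myeloid receptor list 12 were called, 9 of them lower: the phosphatase gene Ptpn6 (-0.999 ± 0.076, adjusted p = 2.99e-06) and receptors such as Siglece (-1.75 ± 0.21, adjusted p = 3.84e-05) and Pirb (-1.96 ± 0.27, adjusted p = 0.000123). Positive IIA cells held 33.2% ± 22.2 granulocyte precursors (8.01% ± 3.0 of negative cells, n = 6 each) and 22.5% ± 7.88 neutrophils (52.5% ± 6.44). Macrophages were 18.2% ± 19.9 against 0.423% ± 0.564 and the Acod1-led cells 8.92% ± 7.06 against 1.02% ± 1.08, and the part of this makeup in the IIA values of all cells was not tested.

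**Figure D2:**
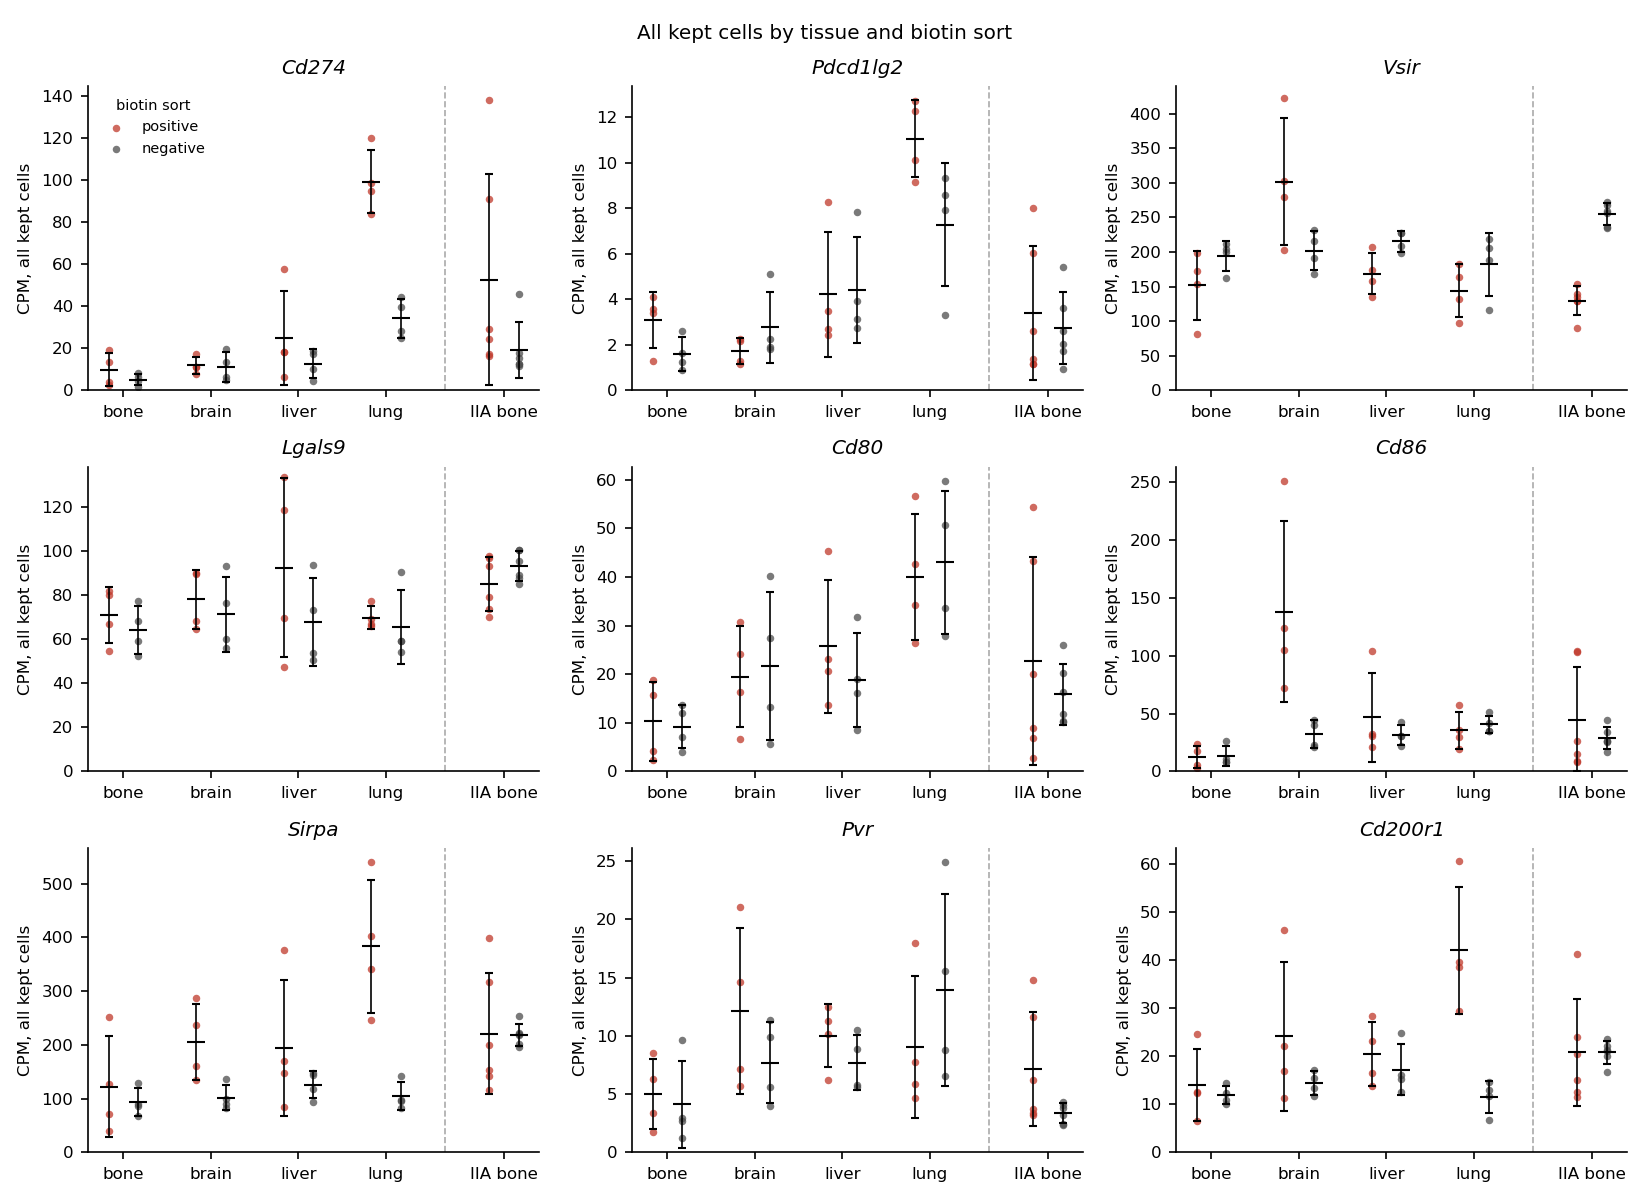
Level of each gene over all kept cells (CPM, vertical axis) by tissue and biotin sort. Points are samples and bars mean and SD (n = 4 a group, 6 in IIA bone, which is set off by a dashed line since its libraries are of another kind): the lung positive samples lie above the negative ones for Cd274 (84.0 to 120 against 25.0 to 44.3), Sirpa and Cd200r1, and the IIA positive samples below for Vsir.

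Whether the biotin effect differed between tissues was tested directly, as the effect in 1 tissue minus the mean effect of the other 3 in a fit over all 32 intracardiac samples. Cd200r1 in lung was the only member called, with a difference of 1.49 ± 0.41 on the log2 scale (edgeR adjusted p = 0.0460). The adjusted p was 0.0560 with median-ratio (RLE) factors in place of TMM, and 7 of 32 fits that left out 1 sample kept the call (1.29 to 1.66). Sirpa had 1.21 (adjusted p = 0.154), which the replicate block took to 1.32 (adjusted p = 0.0149). Over all genes 2.54% of 13963 were called for lung, 0.301% for brain, 0% for bone and 0% for liver. In bone 1057 genes and 1 member had an unadjusted p under 0.05, and in liver 518 genes and no member. DESeq2 called 3 and 16 genes and no member there.

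The second comparison kept to mononuclear phagocytes, the class of macrophages, microglia and monocytes. In lung 8 of the 9 genes were called, 4 higher and 4 lower in the positive sort, where 49.2% of 9613 genes were called. The higher ones were both PD-1 ligands and both myeloid receptors. Cd274 read 148, 105, 164 and 93.1 CPM against 33.3, 26.9, 15 and 12.5 (2.26 ± 0.31, edgeR adjusted p = 0.000227). Pdcd1lg2 read 13.2, 15.4, 17 and 9.04 against 3.61, 2.07, 1.88 and 1.69 (2.33 ± 0.29, adjusted p = 0.000117). In phagocytes it passed the low-count filter in lung alone, and its negative values lie near the floor. Of all 5676 intracardiac classical monocytes 28 had a Pdcd1lg2 UMI. Whether it passed only through the positive samples was not checked, so its call is read with caution. Sirpa read 634, 629, 592 and 556 against 151, 196, 156 and 149 (1.59 ± 0.13, adjusted p = 1.56e-05), and Cd200r1 53.5, 58.5, 70.7 and 66.0 against 4.81, 17.2, 13.1 and 12.8 (2.05 ± 0.27, adjusted p = 0.000155). None of these 4 overlapped between the sorts, which was not counted over all genes.

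The lower genes in lung phagocytes were the CD28 ligand Cd86, the nectin-like Pvr, Vsir and Lgals9. Pvr fell the most, from 44.1, 15.5, 17.1 and 13.8 CPM in negative to 5.78, 2.38, 4.91 and 6.33 in positive samples (-2.65 ± 0.48, adjusted p = 0.00104). Cd86 read 37.5, 23.3, 13.4 and 22.6 in positive against 81.4, 55.2, 56.1 and 51.0 in negative samples (-1.58 ± 0.30, adjusted p = 0.00136), the opposite sign to brain. Vsir read 77.6, 119, 115 and 139 against 140, 276, 289 and 295 (-1.46 ± 0.25, adjusted p = 0.000691). These 3 did not overlap. Lgals9 (-0.71 ± 0.24, adjusted p = 0.0293) lost its call in 5 of the 8 fits without 1 sample. Cd80 was not called (-0.82 ± 0.39, adjusted p = 0.109) and was with the replicate block (-0.94, adjusted p = 0.000945).

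In brain phagocytes 2 members were called. Cd86 lay between 228 and 337 CPM in the 4 positive samples and read 63.3, 62.4, 59.4 and 83.8 in the negative ones, and Sirpa 403, 273, 333 and 520 against 203, 176, 153 and 151, both without overlap. The log2 fold changes were 1.79 ± 0.19 (edgeR adjusted p = 0.000169) and 0.87 ± 0.20 (adjusted p = 0.00547), the only 2 of 8 tested members called, against 41.1% of 8886 genes. Cd80 (-1.10 ± 0.57, adjusted p = 0.147) was called lower with the replicate block (-1.17, adjusted p = 0.0166). Cd274 had -0.13 ± 0.49, Vsir 0.44 ± 0.22, Lgals9 0.03 ± 0.23, Pvr -0.45 ± 0.40 and Cd200r1 0.96 ± 0.45, none of them called. Bone and liver gave no called member out of 8 tested in each, against 1.83% of 7747 and 4.11% of 9505 genes. The unadjusted p was under 0.05 for 4 members in bone and 3 in liver, and with DESeq2 none was called in bone and only Vsir in liver (-0.92, adjusted p = 0.0205). In bone Sirpa read 376, 1021, 266 and 220 CPM in positive and 216, 159, 175 and 177 in negative samples (1.27 ± 0.39, adjusted p = 0.125), with 31 and 17 phagocytes in positive replicates 3 and 4. Liver had 3 positive samples with enough phagocytes, and Cd274 was called there only with the block (1.61, adjusted p = 0.0468).

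In IIA bone 6 of 8 tested members were called, all higher in positive phagocytes, against 30.6% of 8996 genes. Cd274 read 117, 204, 179, 72.5, 129 and 54.4 CPM in positive and 28.7, 118, 43.9, 31, 12.5 and 7.64 in negative samples (1.93 ± 0.50, edgeR adjusted p = 0.00776), overlapping only through negative replicate 2. Sirpa ran from 591 to 1189 against 353 to 464 (0.86 ± 0.14, adjusted p = 0.000168), without overlap, the highest value coming from 14 cells of positive replicate 4. Cd200r1 rose by 1.80 ± 0.30 (adjusted p = 0.000270) and Cd86 by 0.80 ± 0.19 (adjusted p = 0.00489). Cd80 (1.20 ± 0.37, adjusted p = 0.0220) was not called without positive replicate 2 (adjusted p = 0.065) or 3 (adjusted p = 0.0557), nor Pvr (1.13 ± 0.33, adjusted p = 0.0161) without positive replicate 3 (adjusted p = 0.0796). Vsir (-0.33 ± 0.13, adjusted p = 0.0737) and Lgals9 (0.13 ± 0.18, adjusted p = 0.649) were not called.

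The pathway lists are read against the shares of all genes called in phagocytes, 49.2% in lung, 41.1% in brain and 30.6% in IIA bone. In lung 12 of 16 other inhibitory myeloid receptors were called, 4 higher, led by Cd200r4 (5.11 ± 0.35, adjusted p = 8.89e-06) and Siglecf (5.09 ± 0.47, adjusted p = 2.47e-05), and 8 lower, such as Pirb (-1.83 ± 0.20, adjusted p = 5.55e-05). Of 8 other checkpoint ligands 7 were called in lung, 2 higher and 5 lower, among them Ceacam1 (-2.87 ± 0.47, adjusted p = 0.000623) and Nectin1 (-2.89 ± 0.49, adjusted p = 0.000752), against 4 of 7 in brain (1 higher) and 4 of 8 in IIA bone (2 higher). Of 5 tested partners 4 were called in lung: Cd200, the CD200R ligand (4.01 ± 0.54, adjusted p = 0.000192), Cd47 (0.94 ± 0.19, adjusted p = 0.00191) and Rgmb (1.90 ± 0.44, adjusted p = 0.00491) were higher and Selplg lower (-0.41 ± 0.14, adjusted p = 0.0339). Of 11 interferon gamma response genes there 4 were called: Cxcl9, a T cell chemokine, was higher (5.59 ± 0.91, adjusted p = 0.000569), and Psmb8, Tap1 and Psmb9 of the antigen-processing machinery were lower, a share of called genes not above that of all genes. In brain 8 of 14 inhibitory receptors were called, 6 of them lower. Of 5 partners 3 were called in brain: Lag3 (4.29 ± 0.89, adjusted p = 0.00353) and Rgmb (2.89 ± 0.28, adjusted p = 0.000106) were higher and Cd47 lower (-0.80 ± 0.24, adjusted p = 0.0216). In IIA bone 4 of 5 partners were called, Havcr2 (1.68 ± 0.41) and Rgmb (0.85 ± 0.31) higher and Btla (-3.07 ± 0.38) and Selplg (-0.79 ± 0.16) lower. Of 15 inhibitory receptors 8 were called in IIA bone, 7 higher, such as Fcgr2b, the inhibitory Fc receptor (2.02 ± 0.20, adjusted p = 2.55e-06), and Lair1 (1.38 ± 0.14, adjusted p = 2.54e-06). Of the interferon gamma list 3 of 8 genes were called in brain, Irf1 higher and Psmb9 and Psmb8 lower, and 2 of 12 in IIA bone, Cxcl9 (3.69 ± 0.81, adjusted p = 0.00251) and Cxcl10 (2.18 ± 0.50, adjusted p = 0.00354), both higher, shares not above those of all genes.

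Positive and negative phagocytes fell mostly into different classes. In lung 93.8% of 3894 positive phagocytes were alveolar macrophages and 83.3% of 1661 negative ones classical monocytes. In brain 62.4% of 1229 positive phagocytes were border-associated macrophages and 34.1% microglia, while 81.5% of 961 negative ones were classical monocytes. In IIA bone 89.2% of 837 positive phagocytes were macrophages and 83.6% of 1687 negative ones classical monocytes. Kupffer or marrow macrophages made up 65.1% of 591 positive phagocytes in bone and 78.1% of 1222 in liver, and positive replicate 2 alone gave 284 of these 385 cells in bone and 811 of 954 in liver.

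Without the monocyte clusters no member was called in brain, liver or IIA bone, in fits with few negative cells in which a lost call does not show that the sorts were alike. In brain Cd86 then read 386, 313, 250 and 258 CPM in 4 positive samples and 271, 237 and 298 in 3 negative ones (0.19 ± 0.26, edgeR adjusted p = 1.00), and Sirpa had 0.15 ± 0.27 (adjusted p = 1.00). The negative brain samples rested on 19 to 35 cells each. In lung only negative replicate 2 had enough macrophages (21 cells), so no difference between the sorts is read there and the values are given as CPM, with the mean of the 4 positive samples first. Cd274 was 142 against 79.8, Pdcd1lg2 14.8 against 5.70, Vsir 91.4 against 217, Lgals9 50.3 against 103 and Cd86 19.4 against 62.7. Sirpa was 663 against 553, Cd200r1 70.3 against 68.4, Cd80 30.6 against 28.5 and Pvr 2.89 against 5.70. The negative Cd200r1 and Cd80 values of this 1 sample lay within the range of the positive samples. In IIA bone 4 signs turned without reaching a call on 5 positive and 2 negative samples: Cd274 read 385 and 342 CPM in negative and 96.5 to 204 in positive macrophages (-1.05 ± 0.30, adjusted p = 0.131), Cd80 had -1.20 ± 0.29 (adjusted p = 0.0868), Cd86 -0.38 and Pvr -0.56. The genes called overall were 0 in brain, 0 in liver and 41 in IIA bone, so these fits had few calls of any kind. They had no replicate block. With the replicate number as a block, 361 of 6443 genes were called in IIA macrophages, 1 member among them, lower in the positive sort. Within classical monocytes alone no member was called in bone, liver, lung or IIA bone either, with 1, 0, 0 and 1 members at an unadjusted p under 0.05, and of all genes 0, 0, 0 and 2 were called.

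Single classes that both sorts shared, apart from neutrophils and the IIA granulocyte precursors described next, gave 34 comparisons with 161 member tests. The classical monocyte and IIA macrophage fits given above are among the 34. None of the 161 was called in edgeR, 19 had an unadjusted p under 0.05, and 5 were called with the replicate block. Over all genes 0.868% of 169324 tests in these comparisons were called without the block. In most of them the block called more genes. It called 1020 of 10881 in place of 0 in bone granulocyte precursors and 361 of 6443 in place of 41 in IIA macrophages. Each of these 2 fits held 1 of the 5 member calls.

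**Figure D3:**
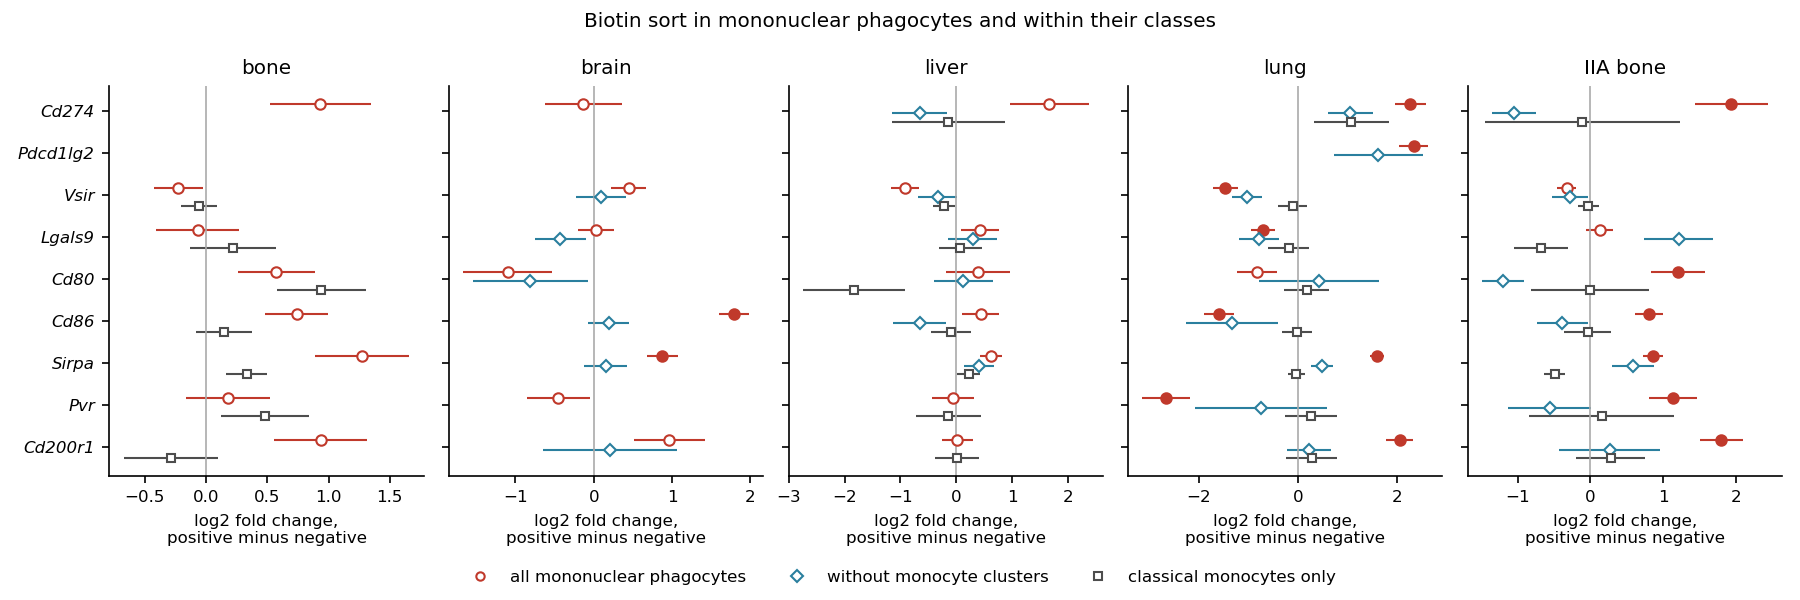
Log2 fold change of positive over negative samples (horizontal axis, bars give the SE) in all mononuclear phagocytes (circles), without monocyte clusters (diamonds) and in classical monocytes alone (squares). Filled symbols passed an adjusted p of 0.05: all filled symbols are circles and the lung diamonds rest on 1 negative sample of 21 cells, in brain (Cd86 and Sirpa), lung (8 genes) and IIA bone (6 genes).

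Granulocyte precursors of IIA bone were present in all 6 positive and 6 negative samples. Of 5 tested members 3 were called, against 44% of 8781 genes. Cd274 was higher in the positive sort, at 9.66, 18.2, 15.2, 12.1, 13.2 and 10.6 CPM against 5.53, 3.2, 7.01, 1.49, 3.67 and 5.23 (log2 fold change 1.19 ± 0.24, edgeR adjusted p = 0.000472). Vsir was lower, at 79.5 to 123 CPM against 167 to 196 (-1.16 ± 0.09, adjusted p = 2.28e-09), and so was Sirpa, at 93.7 to 131 against 139 to 181 (-0.83 ± 0.08, adjusted p = 7.42e-08). None of the 3 overlapped, which was not counted over all genes. Lgals9 (0.17 ± 0.09, adjusted p = 0.162) and Cd200r1 (-0.16 ± 0.17, adjusted p = 0.472) were not called. All 5 tested other checkpoint ligands were lower, among them Lgals3 (-3.25 ± 0.24, adjusted p = 1.05e-09), and 11 of 14 inhibitory myeloid receptors were called, 9 lower, such as Pirb (-3.77 ± 0.26, adjusted p = 5.47e-10).

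The precursors of the sorts also lay in different clusters. Of 2071 positive precursors 56.7% were in a cluster led by Prtn3 and Elane, enzymes of the first granules, 16.7% in one led by Mpo and 10.6% in one whose first genes, Hspa1b and Hspa1a, encode heat shock proteins, and positive replicate 5 gave 1411 of them. Of 1426 negative ones 36.9% were in a cluster led by Fcnb and 33.6% in one led by histone genes. Within the Prtn3-led cluster Vsir was 92.5 ± 5.29 CPM in positive and 127 ± 8.39 in negative samples (n = 5 each, 83.4 to 96.2 against 116 to 138), and Sirpa 98.3 ± 6.81 against 149 ± 24.8. Cd274 was 9.03 ± 3.50 against 7.13 ± 3.73, which overlap, while the Mpo-led cluster of the positive sort had 42.6 ± 14.8 (n = 4). After Mpo, that cluster was led by Cacnb2, Nrg2, Kcnq5 and Kcnq1ot1. Only 3 precursor markers were among its 100 leading genes, so its name has a narrow base. In the histone-led cluster Vsir was 151 ± 26.2 in 3 positive and 267 ± 21.1 in 6 negative samples, and Sirpa 162 ± 27.4 against 159 ± 22.2. In the Fcnb-led cluster Vsir was 244 and 250 in 2 positive samples and 245 ± 24.1 in 6 negative ones, and Sirpa 165 and 242 against 188 ± 25.0. In a cluster led by Phgdh the 1 positive sample had 52.8 for Vsir and 97.3 for Sirpa, and the 2 negative ones 74.7 and 88.9, and 115 and 125. The gaps between the sorts thus varied with the cluster. These values are a description without a test, and the positive cells of the Prtn3-led cluster were also deeper (median 17309 against 9868 UMIs) and those of the histone-led one shallower (767 against 3699), differences whose part was not tested.

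**Figure D4:**
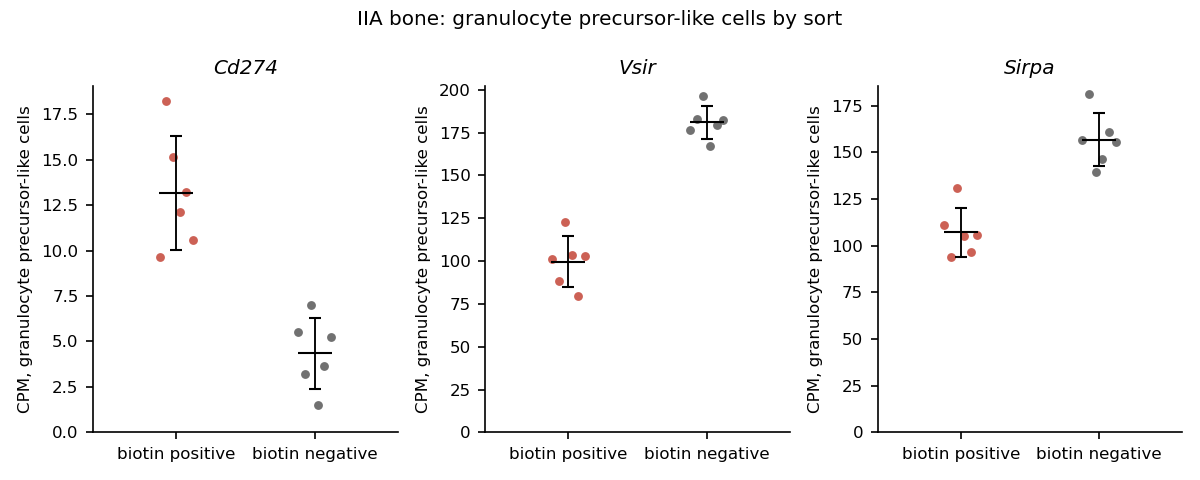
Level (CPM, vertical axis) of Cd274, Vsir and Sirpa in granulocyte precursors of IIA bone by biotin sort. Points are the 6 samples of a sort and bars mean and SD: positive samples lie above negative ones for Cd274 (9.66 to 18.2 against 1.49 to 7.01) and below them for Vsir and Sirpa, with no overlap.

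Neutrophils, short-lived granulocytes found in every tissue, were compared between the sorts and then between tissues. Between the sorts edgeR called 0% of 8615 genes for bone, 0% of 5854 for brain, 0% of 6350 for liver and 0% of 7784 for lung. Unadjusted p was under 0.05 for 114, 66, 89 and 442 genes, with 1 member in bone and 1 in liver, Cd274 in both, and none in brain or lung. DESeq2 called 1, 0, 0 and 7 genes and no member. In IIA bone, where 5% of 7961 genes were called, Cd80 was the only member called. It read 25.3, 26.2, 34.8, 10.4, 31.3 and 25.2 CPM in positive and 13.1, 17.3, 20.6, 11.9, 13.5 and 15.1 in negative samples (0.77 ± 0.20, adjusted p = 0.0266), with positive replicate 4 below every negative sample. It was not called without positive replicate 3 (adjusted p = 0.106), 5 (0.167) or 6 (0.0585), nor when the low-count filter was dropped.

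Between tissues, neutrophils of the negative sort differed in several members. Lung neutrophils had more Cd274, at 52.4, 20.9, 39.3 and 58.6 CPM, than those of bone (5.59, 5.07, 3.35 and 1.43), brain (5.82, 9.78, 24.4 and 3.95) and liver (15.9, 12, 12.3 and 2.90). Against the mean of the other 3 tissues the log2 difference was 2.45 ± 0.38 (edgeR adjusted p = 0.00192). Only brain replicate 3 reached above the lowest lung sample. Cd80 read 99.7, 71.1, 62.2 and 45.0 in lung against 23.2, 12.4, 9.06 and 5.56 (bone), 12.5, 42.6, 37.8 and 17.1 (brain) and 22.1, 43.4, 27.5 and 20.0 (liver), so that no other sample reached the lowest lung sample (1.61 ± 0.30, adjusted p = 0.00354). Pdcd1lg2 (1.58 ± 0.46, adjusted p = 0.0295) was called higher in lung, with values of 2.88, 2.36, 6.55 and 7.01 against 0.839 to 1.38 in bone, 0.423 to 5.18 in brain and 0.948 to 2.61 in liver. Brain replicate 3 and liver replicate 4 reached above the lowest lung sample, and the call was lost without lung negative replicate 1 (adjusted p = 0.0569) or 4 (1.11, adjusted p = 0.228). Vsir was lower in lung (-0.49 ± 0.15, adjusted p = 0.0328), a call lost in 11 of 16 fits without 1 sample.

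Marrow neutrophils stood at the other end. Cd274 (-2.01 ± 0.47, edgeR adjusted p = 0.0124), Cd80 (-1.56 ± 0.35, adjusted p = 0.0102) and Cd86 (-0.73 ± 0.17, adjusted p = 0.0136) were lower and Cd200r1 (0.77 ± 0.23, adjusted p = 0.0348) higher in bone than in the mean of the other tissues. The Cd274 call was lost without bone negative replicate 4 (-1.71, adjusted p = 0.0535), that of Cd86 without bone negative replicate 2 or 3 and that of Cd200r1 in 8 of 16 such fits. Of 8912 genes 15.3% were called for lung, 15% for bone, 0% for brain and 0.0224% for liver. For brain DESeq2 called 1 gene and no member, and the unadjusted edgeR p of 494 genes, no member among them, was under 0.05. Of 12 interferon gamma response genes, a share near that of all genes was called: Gbp2, a guanylate-binding protein, and Irf1, a transcription factor, both higher in lung (1.16 ± 0.32, adjusted p = 0.0216, and 0.68 ± 0.20, adjusted p = 0.0328) and both lower in bone (-1.28 ± 0.35, adjusted p = 0.0233, and -1.05 ± 0.22, adjusted p = 0.00836), in contrasts that share samples. The replicate block added calls of Pvr (1.44, adjusted p = 0.0149) and Cd200r1 (-0.59, adjusted p = 0.0114) in lung and of Pvr (-1.81, adjusted p = 0.00776) and Vsir (0.32, adjusted p = 0.0355) in bone.

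Cd274 was uneven over the neutrophil clusters, and 1 small cluster led by Cstdc4, Upp1 and Hcar2 was singled out after its values were seen. Its 442 intracardiac cells carried the neutrophil genes S100a8 (29869 CPM) and S100a9 (34022 CPM), no Cd3e UMI (0 of 442, up to 0.831% by the exact interval) and C1qa in 2.71%. In these cells Cd274 was 541 CPM and was seen in 48.6% (exact interval 43.9 to 53.4%) at a median of 2343.5 UMIs, and Pdcd1lg2 was 108 CPM and seen in 17.4% (14 to 21.3%), against 7.11% and 4.17% of T cells at 3171 UMIs. Over the 4 negative lung samples pooled, the cluster was 5.31% of neutrophils and held 51.1% of their 706 Cd274 UMIs and 62.2% of their 74 Pdcd1lg2 UMIs, values that replicate 4 decided. Its share of neutrophil Cd274 UMIs was 17.1%, 11.3%, 20.8% and 83.0% in replicates 1 to 4, and without replicate 4 it was 1.46% of neutrophils with 14.8% of 330 Cd274 and 17.2% of 29 Pdcd1lg2 UMIs. It was 0.290% of negative bone neutrophils, 0.132% of brain and 0.820% of liver ones. Of the 229 negative lung cells 190 came from replicate 4, and of 138 positive lung cells 71 came from replicate 4 and 43 from replicate 1. Cd274 within the cluster was 640, 328, 718 and 697 CPM in the 4 negative lung samples, on 15, 19, 5 and 190 cells. Without the cluster lung neutrophils still had more Cd274 (1.73, edgeR adjusted p = 0.0155) and Cd80 (1.62, adjusted p = 0.00461) than the other tissues, Vsir was not called (-0.44, adjusted p = 0.0569), and Pdcd1lg2 was too low to be tested.

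A larger cluster was led by Il1b, Acod1 and Cxcl2, genes of activated neutrophils. It was 64.6% ± 14.3 of negative neutrophils in lung, 49.6% ± 13.4 in liver, 22.0% ± 14.1 in brain and 2.24% ± 1.96 in bone (n = 4 each), and over the pooled lung samples it was 68.9% of negative neutrophils and held 71.5% of their Cd80 UMIs, a share close to that of its cells. Within this cluster no member was called between tissues in edgeR, where 0.0164% of 18332 gene tests were called and 1 member test, in liver, had an unadjusted p under 0.05. The lung differences there were 0.50 ± 0.47 for Cd274 and 0.49 ± 0.26 for Cd80, smaller than in all neutrophils. The bone samples of this cluster held only 90 cells in all, with Cd274 at 0, 75.2, 24.3 and 0 CPM. A lost call therefore does not show that the tissues were alike within it.

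**Figure D5:**
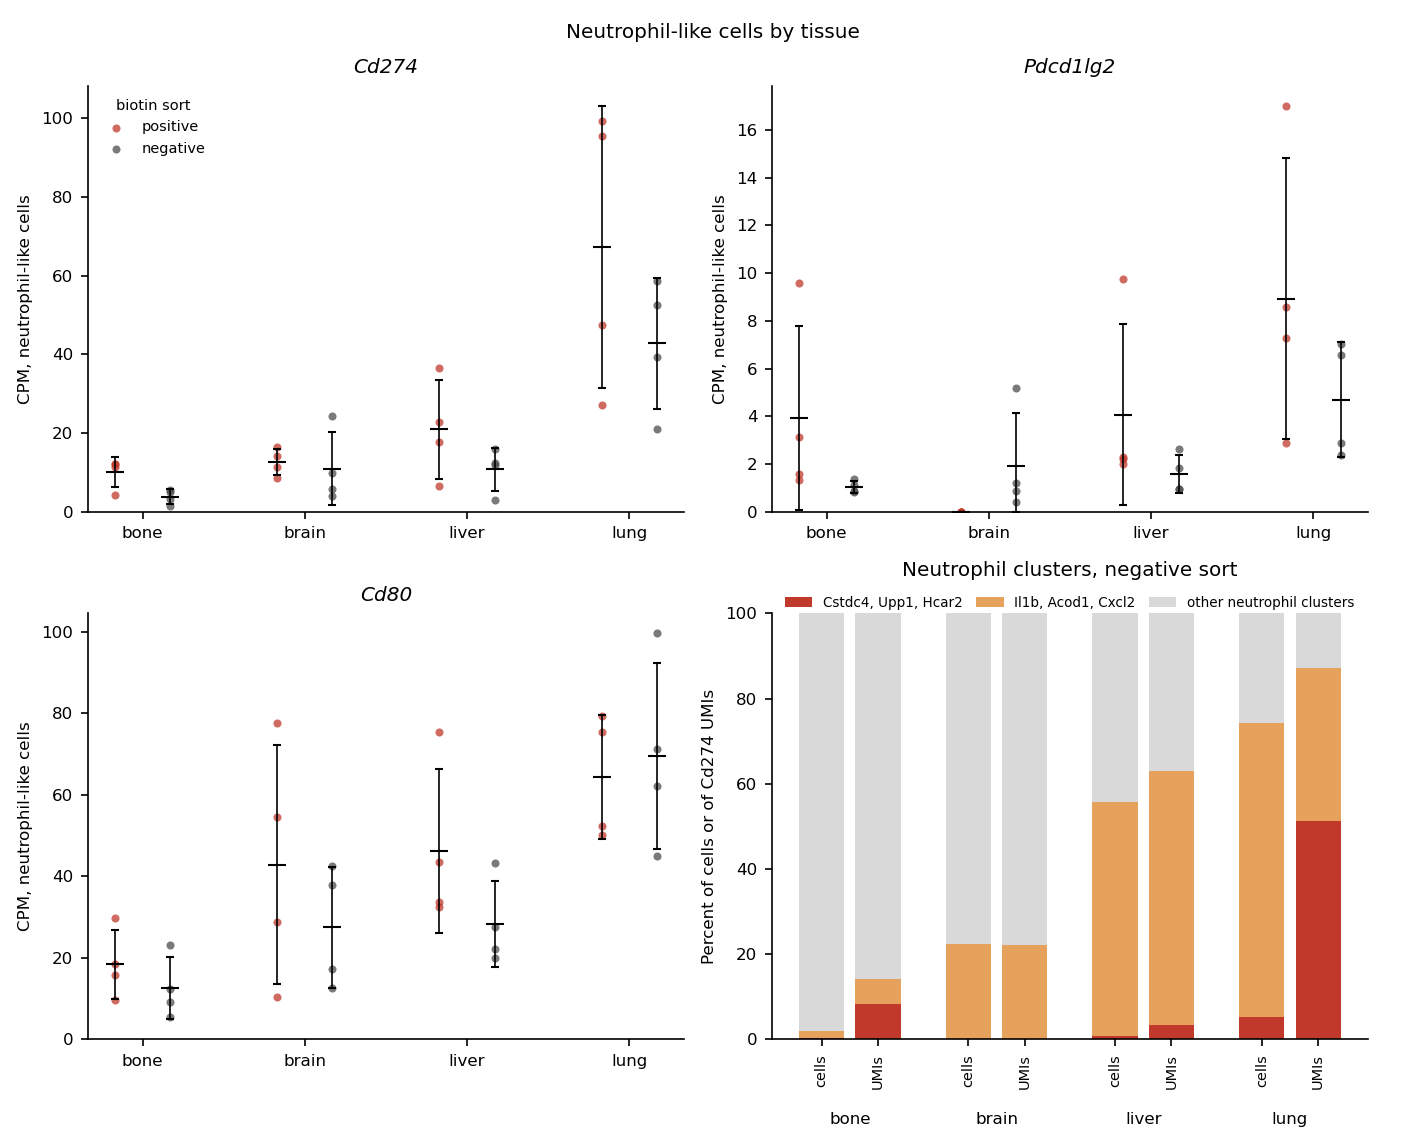
Level of Cd274, Pdcd1lg2 and Cd80 in neutrophils (CPM, vertical axis) by tissue and biotin sort, with points for samples and bars for mean and SD (n = 4), and, in the last panel, the share of negative-sort neutrophils and of their Cd274 UMIs in 2 clusters and the rest (stacked percent, samples pooled). Lung is highest for each gene, and the Cstdc4-led cluster is 5.31% of pooled lung neutrophils with 51.1% of their Cd274 UMIs, against 1.46% and 14.8% without replicate 4.

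Classical monocytes of the negative sort gave no call between tissues: 0.327% of 9174 genes were called for bone, 0% for brain, 0% for liver and 0.469% for lung, and 0 of 8 tested members in each. Unadjusted p was under 0.05 for 219 genes in brain and 399 in liver, and for 1, 0, 2 and 5 members in bone, brain, liver and lung. DESeq2 called 0 and 3 genes in brain and liver, and of the members only Pvr in lung (1.10, adjusted p = 0.0220). With the replicate block 5 members were called in lung: Cd274 (1.40, adjusted p = 0.0389), Cd80 (1.34, adjusted p = 0.0289), Cd86 (0.51, adjusted p = 0.0289) and Pvr (1.10, adjusted p = 0.0178) higher and Cd200r1 (-0.70, adjusted p = 0.0275) lower, and in bone Cd86 lower (-0.59, adjusted p = 0.0439). Cd274 and Cd80 in lung monocytes thus had the sign seen in lung neutrophils, but the call rested on the block. The shares of all genes above are without the block. With it more of all genes were called in lung and bone monocytes too, as the last paragraph counts.

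Finally, the genes whose pattern was most like each member were named over 82 sums of class, tissue and sort with at least 50 cells, by Pearson's r of log2(CPM + 10) among 11654 genes. The sums share libraries and depth, so r is a description. Sirpa was closest to Asah1 (0.906), Atp6v0b (0.899) and Cd68 (0.892), Vsir to Tlr13 (0.853) and Cd33 (0.835), Cd86 to Ctss (0.851) and Cd80 to Mcl1 (0.822), Il1b (0.821) and Nlrp3 (0.819). Pdcd1lg2 was closest to Rhof (0.754), Pvr to Avpi1 (0.702), Cd274 to Bcl2a1b (0.695), Cd200r1 to Nceh1 (0.649) and Lgals9 to Csf1 (0.632). Lgals9 thus had the loosest match of the 9.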

How the data were processed

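The deposited files hold raw UMI counts per gene and cell, per the labels made with Cell Ranger on mm10 and handled in Seurat, no versions given; the file headers name the software of each matrix. Intracardiac samples had been demultiplexed by the authors. In the IIA matrix a cell was given to a hashtag with at least 10 counts and 3 times the next one. Its hashtags (CMO in the matrix, C in the labels) were matched by number, so every IIA result rests on that match.

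Cells with at least 500 UMIs, 200 genes and at most 15% mitochondrial UMIs were kept. They were clustered in scanpy 1.11.5 (2000 variable genes, 30 components, 15 neighbours, Leiden resolution 1.0, with a second round) and named from 30 marker lists. A clash among macrophage lists was named macrophage, a rule added after seeing the data. Doublets were not removed; an alternative left out the 5% highest Scrublet scores. Counts were summed per sample and class (at least 10 cells) and tested in edgeR 4.0.16 (quasi-likelihood, TMM, filterByExpr, Benjamini-Hochberg over all genes, called under 0.05). Log2 fold changes carry TMM scaling and CPM do not. Alternatives were DESeq2 1.42.0, median-ratio factors, no filter, the replicate block, 1000 UMIs, other classes and each sample left out. The test was checked on simulated counts.

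All 9 genes entered every comparison; the text gives values for those called or near a call and counts for the rest, and its pathway examples come from the at most 6 called genes of a list with the smallest p. Members and lists were chosen with earlier results of these data known. Labels do not state that samples are separate animals, so p-values measure the spread between samples, which may be technical. Same-numbered samples deviated together in 44 of 47 intracardiac values (correlation over 0.1, median 0.361, lowest -0.09) and 10 of 18 IIA values (median 0.157). Each pair of samples was counted in all cells, in phagocytes and in neutrophils, so these values are not independent. Intracardiac samples of 1 number shared no barcode, while those of different numbers did. The main fits did not use the replicate number, and only the block did. The levels of 1 unnamed cluster are not reported here.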

Additional observations from a re-analysis of the deposited data

Results flagged for a closer look

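Within each group of 4 or 6 samples the highest and lowest value of each gene was set against the spread of the others with Dixon's ratio at its 95% critical value. Of 260 groups of values 23 held a sample that stood apart, where chance gives about 1 in 20. Over all kept cells, in CPM, these were Cd86 26.2 in bone negative replicate 1 (others 7.92 to 11), Pdcd1lg2 5.11 in brain negative replicate 3 (others 1.81 to 2.24) and Cd86 104 in liver positive replicate 2 (others 20.7 to 32). The others there were Lgals9 90.7 in lung negative replicate 2 (others 54.2 to 59.2) and Cd274 45.8 in IIA bone negative replicate 2 (others 11.5 to 17.7).

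In mononuclear phagocytes, in CPM, these were Pdcd1lg2 1.76 in bone positive replicate 1 (others 0), Pvr 0 in bone positive replicate 4 (others 14.1 to 15.3), Cd86 83.8 in brain negative replicate 4 (others 59.4 to 63.3), Pdcd1lg2 0 in liver negative replicate 4 (others 0.348 to 0.382) and Cd86 81.4 in lung negative replicate 1 (others 51.0 to 56.1). The others there were Pvr 44.1 in lung negative replicate 1 (others 13.8 to 17.1), Sirpa 196 in lung negative replicate 2 (others 149 to 156), Vsir 140 in lung negative replicate 1 (others 276 to 295), Cd274 118 in IIA bone negative replicate 2 (others 7.64 to 43.9) and Sirpa 1189 in IIA bone positive replicate 4 (others 591 to 650). In neutrophils, in CPM, these were Cd274 4.33 in bone positive replicate 4 (others 11.5 to 12.2), Pdcd1lg2 5.18 in brain negative replicate 3 (others 0.423 to 1.22), Lgals9 51.7 in brain positive replicate 2 (others 77.8 to 81.8) and Pvr 17.2 in brain positive replicate 2 (others 0 to 1.90). The others there were Pdcd1lg2 9.74 in liver positive replicate 4 (others 2.0 to 2.29), Cd274 11.5 in IIA bone negative replicate 2 (others 2.24 to 4.27), Lgals9 109 in IIA bone positive replicate 4 (others 73.4 to 85.4) and Pvr 3.16 in IIA bone positive replicate 1 (others 0).

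IIA negative replicate 2 was apart for Cd274 in all 3 sets of cells, and it held 40 of the 68 macrophages of the negative IIA sort. Zeros come from small sums and do not show that a gene was absent. The biotin effect on Cd200r1 differed between tissues: in lung it was larger than the mean effect in bone, brain and liver by 1.49 on the log2 scale, a tested difference whose call 7 of 32 fits without 1 sample kept and median-ratio factors did not (adjusted p = 0.0560).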

How the results depend on the processing

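Of 2910 values of single members under the alternatives, 2648 kept their direction and side of the threshold, 138 changed sign without being called in either fit, 75 lost a call, 45 gained one and 4 changed sign from a called value. Over all kept brain cells the 0 members called became 1 (Cd86) in DESeq2, with the replicate block, without the low-count filter and at 1000 UMIs per cell. In phagocytes 1 member was called in bone without the filter and 1 in liver in DESeq2 and with the block. Leaving out the monocyte clusters took the members called to 0 in brain and IIA bone (also 0 in lung, where 1 negative sample of 21 cells was left and nothing is read), and in IIA bone turned Cd274 (-1.05), Cd80 (-1.20), Cd86 (-0.38) and Pvr (-0.56), on fewer samples and other cells by construction. Keeping classical monocytes alone gave 0 in lung and IIA bone. IIA neutrophils gave 0 without the filter. For the biotin effect between tissues, DESeq2 called 1 member in brain, median-ratio factors called 0 in lung and the block 2. For classical monocytes the block called 1 member in bone and 5 in lung, and DESeq2 1 in lung. Neutrophils between tissues gave 0 members in bone and lung within the Il1b and Acod1 cluster, and 2 in lung without the Cstdc4, Upp1 and Hcar2 cluster; these class choices other than the monocyte one were made after seeing the data. At Leiden resolution 2.0 Cd80 in Kupffer or marrow macrophages was 55.8 CPM and Sirpa in alveolar macrophages 622. Where no construction above shows it, the cause was not tested.

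Leaving out 1 sample at a time, the members called ranged from 0 to 1 for all brain cells, 2 to 3 for all IIA cells, 2 to 4 for brain, 0 to 2 for liver, 7 to 8 for lung and 4 to 7 for IIA phagocytes, 0 to 1 for IIA neutrophils, 0 to 2 for the biotin effect in lung, 0 to 1 for lung monocytes and 2 to 5 for bone and 2 to 4 for lung neutrophils between tissues. Where this left 1 sample in an arm, its spread was taken from the other samples.

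Counts of all genes called moved by over 1.5 times in these fits. Over all kept cells brain went from 339 to 1225 in DESeq2, 762 with the block and 517 without the filter, bone from 0 to 53 in DESeq2 and 12 with the block, and liver from 0 to 431 in DESeq2. In phagocytes bone went from 142 to 775 without the filter and 89 at 1000 UMIs, and liver from 391 to 757 in DESeq2 and 1070 without the filter. For neutrophils by sort the block gave 4 genes for bone, 34 for brain, 4 for liver and 22 for lung in place of 0, and no filter gave 20 in brain, 53 in liver and 50 in lung. For the biotin effect between tissues the block gave 857 in place of 355 in lung, 142 in place of 42 in brain, 13 in bone and 1 in liver, and DESeq2 gave 624 in lung and 210 in brain. Between tissues the block gave 2905 in place of 1339 in bone, 2734 in place of 1360 in lung and 34 in place of 2 in liver for neutrophils (26 in DESeq2), and 208 in place of 30 in bone and 572 in place of 43 in lung for classical monocytes, where DESeq2 gave 88 and 169. Low counts limit Pdcd1lg2 and Pvr most, and no share or level covers more than counting error and the spread of these samples.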
